A study of Caenorhabditis remanei with 28 samples.

Results

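Poly-A RNA of first-stage (L1) larvae was compared between a heat-selected and an oxidative-selected population of the nematode Caenorhabditis remanei, a species with separate males and females. The comparison was made by population label: heat replicates 1 to 6 against oxidative replicates 1 to 6, with heat replicates 7 and 8 set aside as a check, so that 14 of the 28 libraries of the series belong to it. Both populations were derived from the laboratory strain PX443, the ancestor (4 libraries numbered 3 to 6, and replicates 7 and 8), as was a control-selected population (6 libraries numbered 1 to 6, and replicates 7 and 8). The ancestor and control served here as reference points, to show for each differing gene which of the stress-selected populations stood away from them.

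All populations were grown at 20 °C on bacteria. Embryos were isolated by bleaching and held for 20 h in buffer without food, and about 100000 filtered larvae were frozen per replicate. The protocol also names incubation at 30 °C, but the series design places the libraries at 20 °C, and titles in these 2 populations state no temperature. The labels record no stress before sampling and no age beyond the L1 stage. Each selection regime is 1 population, so that selection and drift cannot be told apart. The labels do not say whether replicates came from separate cultures, and p-values measure only the spread between these libraries.

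Nematode larvae that hatch without food stop developing at L1 until they are fed. In Caenorhabditis elegans, where the pathways are best known, acute heat induces chaperone genes through the heat shock factor HSF-1, oxidants induce detoxification genes through SKN-1, and the factor DAF-16 acts in both responses and in the starved larva. A population selected for one kind of resistance could differ from another in the resting level of such genes, and the question put to these libraries is which genes differed between the 2 populations without stress. The deposited identifiers could not be paired with names (0 of 25337 matched the gene table used), so genes are given by identifier, their roles are not stated, and neither the larval stage nor the populations could be checked against marker genes.

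Several features of the libraries move with the comparison. The heat libraries 1 to 6 held 1406684 to 4306080 gene counts, against 3103341 to 5754254 in the oxidative libraries. The two-sided exact permutation test gave p = 0.0152, or 0.0202 when adjusted over 4 measures. The unaligned share of reads was 21.3% ± 4.74 (SD, n = 6) in heat and 35.1% ± 1.91 (n = 6) in oxidative libraries. The share falling outside annotated genes was 30.4% ± 6.64 and 17.3% ± 1.92. The 2 sets of libraries did not overlap in either share, and each difference had p = 0.00216, the smallest that 6 against 6 can give (exact permutation test, adjusted p = 0.00433). Control replicates 1 to 6 lay at 24.3% ± 7.00 unaligned and 19.3% ± 3.76 outside genes, nearer to heat in the unaligned share and nearer to the oxidative libraries in the share outside genes. The part of these shares in the results was not tested beyond the fits with a covariate.

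**Figure D1:**
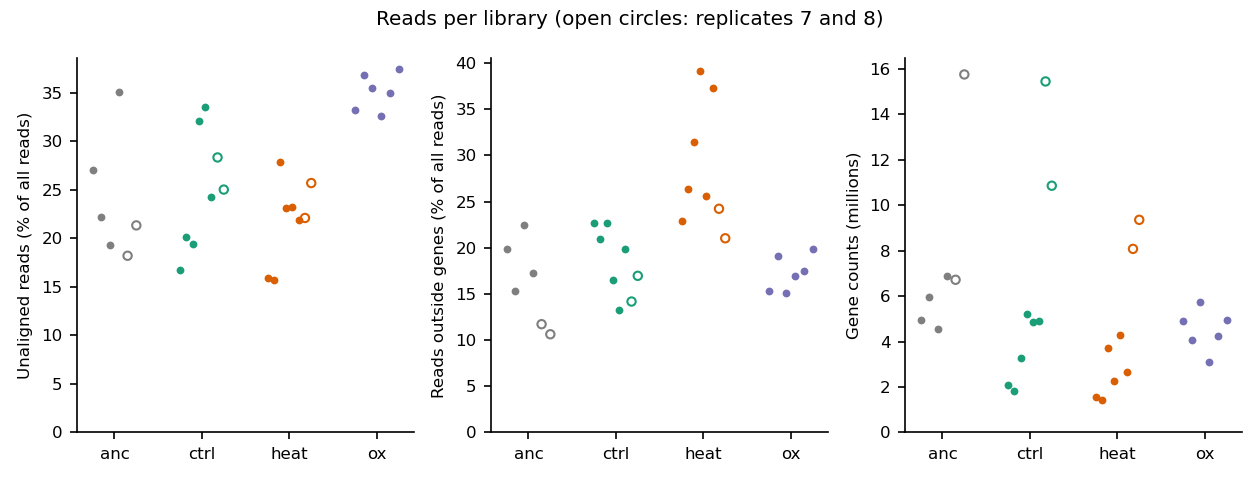
Share of unaligned reads, share of reads outside annotated genes (both in % of all reads) and gene counts, 1 point per library, for ancestor (anc), control (ctrl), heat and oxidative (ox) populations; open circles are replicates 7 and 8. The oxidative libraries lie between 32.6% and 37.5% unaligned, above all heat libraries, and heat replicates 1 to 6 lie between 22.9% and 39.1% outside genes, above all oxidative libraries.

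The heat libraries were also less alike than the oxidative ones. The standard deviation of a gene among libraries had a median of 0.44 log2 units in heat replicates 1 to 6 and 0.26 in oxidative replicates 1 to 6. Heat replicate 1 had an oxidative library, replicate 4, as its closest in log2 CPM (counts scaled to a common library size by TMM, the trimmed mean of M-values), whereas every other library among the 12 had its closest within its own population. Heat replicates 3 to 6 differed from heat replicates 1 and 2 in 697 of 10102 genes tested (quasi-likelihood test of edgeR, threshold 0.05 after adjustment). The leading principal component of the 12 libraries held 41.4% of the variance and did not separate the populations (2.61% of it lay between them). Its scores followed the TMM scaling factors of the libraries almost exactly (correlation -0.995). Heat replicate 1 and oxidative replicate 4 had the largest factors of their populations (1.34 and 1.15). The part of these factors in the closeness of the 2 libraries was not tested. The second component held 21.8%, of which 96.9% lay between populations. On it heat scored 16.8 to 29.9 and oxidative -26.92 to -16.51.

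Heat and oxidative larvae differed in 827 of 10495 genes tested (7.88%), 501 higher in heat (4.77% of genes tested) and 326 lower in heat (3.11%), by the quasi-likelihood test of edgeR at a threshold of 0.05 after Benjamini-Hochberg adjustment (n = 6 and 6). The differences were mostly modest. The median log2 fold change was 0.91 among the genes that were higher in heat and -0.75 among those that were lower, against 0.04 over all genes tested. At least 2-fold differences were found in 214 genes that were higher and 93 that were lower in heat, and at least 4-fold differences in 37 and 14. The 6 heat and 6 oxidative libraries did not overlap in 235 of the 501 genes and in 236 of the 326, where 5.25% of all genes tested showed no overlap. Called genes were found at every level, from 4.99% in the lowest of 4 equal abundance classes (95 higher and 36 lower in heat) to 11.1% in the highest (159 and 133).

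**Figure D2:**
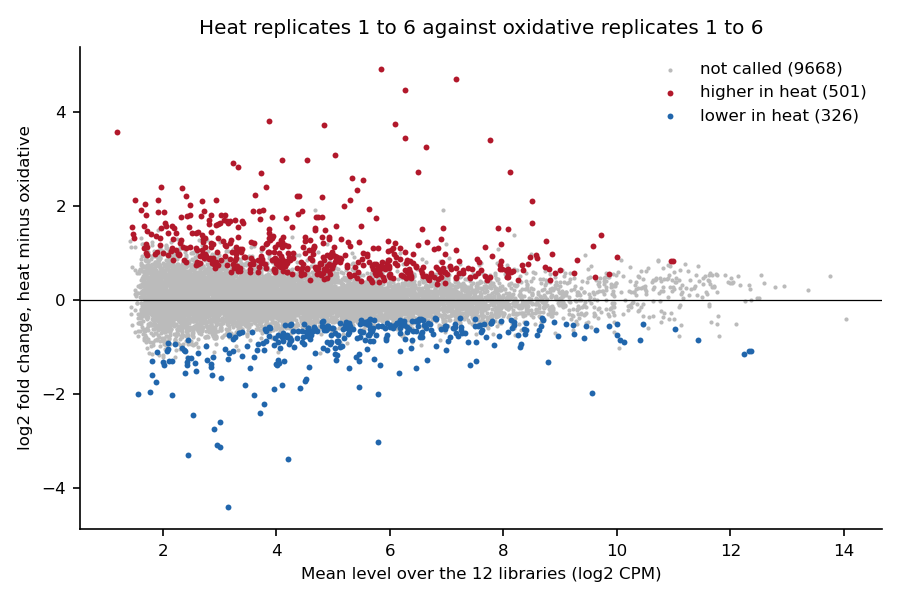
log2 fold change (heat minus oxidative) against the mean level over the 12 libraries (log2 CPM) for each of the 10495 genes tested; red and blue points are the 501 and 326 genes called. Most called genes differ by less than 2-fold, and those higher in heat reach larger folds (37 at 4-fold or more) than those lower in heat (14).

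As a share of all gene counts, the 501 genes made up 4.76% ± 0.204 in heat and 2.72% ± 0.103 in oxidative libraries. The 326 genes made up 3.85% ± 0.519 and 7.10% ± 0.233 (n = 6 each; the genes were selected on these libraries, so the values are a description). The reference libraries had no part in that choice. For the 501 genes the control libraries 1 to 6 held 4.17% ± 0.571 and the ancestor libraries 3 to 6 held 3.72% ± 0.285, between the levels of the 2 stress-selected populations. For the 326 genes they held 4.38% ± 0.490 and 4.47% ± 0.496, nearer to heat. In bulk RNA of whole larvae, fewer cells of a type and less RNA per cell cannot be told apart.

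The number called depended on single libraries. It was 1947 without heat replicate 1, and 549, 548 and 546 without oxidative replicate 2, 5 or 6; of the 827 genes, 826 were called again in the first of these fits. Without oxidative replicate 1 the genes higher in heat fell from 501 to 310. With the unaligned share added as a covariate 2810 genes were called, of which 375 were among the 827. With the share outside genes as the covariate 698 were called, of which 254 were among the 827. Population accounted for 81.5% of the variance of the first share and 68.4% of the second, so that these shares and the populations cannot be told apart in a fit of 12 libraries.

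Each called gene was then placed by where the control mean (replicates 1 to 6) and the ancestor mean (replicates 3 to 6) lay in log2 CPM between the heat mean, set to 0, and the oxidative mean, set to 1. In 500 of the 827 genes both references lay nearer to heat (60.5%), and these were placed as oxidative apart. In 133 genes both lay nearer to oxidative (16.1%), placed as heat apart, and in 194 the references were split. The placing compares means only and does not test whether a population differed from the references. Over all genes tested the same placing gave 46% oxidative apart and 24.1% heat apart. The median position was 0.18 for the control and 0.32 for the ancestor among called genes, and 0.19 and 0.31 over all genes tested. Genes lower in heat were placed as oxidative apart in 228 of 326 cases (69.9%), and genes higher in heat in 272 of 501 (54.3%). Both references lay within 0.25 of the heat mean or beyond it in 277 of the 827 genes, close to the proportion over all genes tested (3534 of 10495), and within 0.25 of the oxidative mean or beyond it in 57 (1788 of 10495). In 160 genes both lay between 0.25 and 0.75, with the stress-selected populations on opposite sides of them (736 of 10495). Among the 194 split genes the control was the reference nearer to heat in 130 and the ancestor in 64, where the 3143 split genes among all tested divided into 1737 and 1406.

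**Figure D3:**
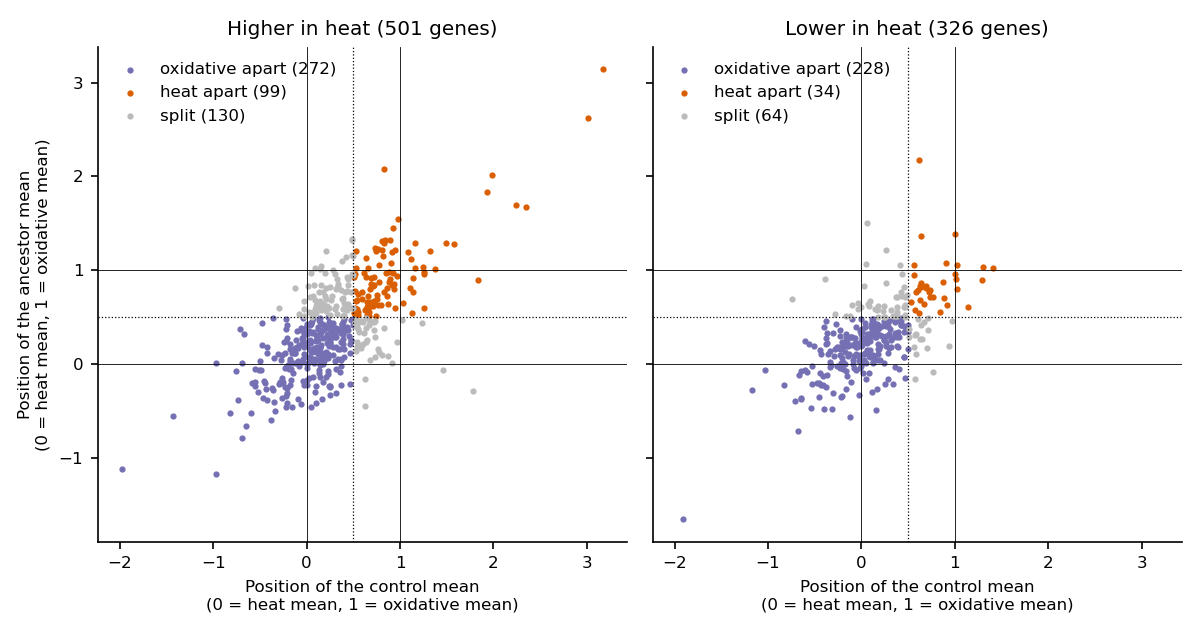
Position of the control mean (x axis) and of the ancestor mean (y axis) for the 501 genes higher and the 326 genes lower in heat, where 0 is the heat mean and 1 the oxidative mean in log2 CPM; dotted lines mark 0.5 and colours the 3 placements. Of the 827 points 500 lie under 0.5 on both axes, with medians of 0.24 and 0.36 in the left panel and 0.11 and 0.29 in the right.

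The direct tests against each reference were taken from 1 fit of the 22 libraries numbered 1 to 6. Over the 11941 genes in it, 2.03% differed between heat and control, 11.2% between oxidative and control, 1.37% between heat and ancestor and 4.35% between oxidative and ancestor. The ancestor has 4 libraries in this fit and the control 6, and heat libraries held fewer gene counts than oxidative ones. The percentages therefore do not measure which populations lay closer. The tests share libraries with the comparison that chose the genes and with each other, so their counts are set side by side as a description. Of the 501 genes higher in heat, 255 were lower in oxidative than in control larvae (5.28% of 11941 genes tested were) and 151 were lower than in the ancestor (2.6%). Among the same 501 genes, 70 were higher in heat than in control larvae (1.51% of genes tested) and 72 were higher than in the ancestor (0.921%; edgeR, adjusted p under 0.05). Of the 326 genes lower in heat, 216 were higher in oxidative than in control larvae (5.96% of genes tested) and 110 higher than in the ancestor (1.76%). In heat larvae 20 of the 326 were lower than in control (0.519%) and 16 lower than in the ancestor (0.452%). The median log2 difference of the 501 genes was -0.64 between oxidative and control and 0.25 between heat and control. That of the 326 genes was 0.67 between oxidative and control and -0.09 between heat and control, against -0.02 and 0.02 over all genes tested. Against the ancestor the medians were -0.55 for oxidative and 0.30 for heat over the 501 genes. Over the 326 genes they were 0.52 and -0.23, against -0.02 and 0.002 over all genes tested.

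FL81_17394 had the largest fold change among genes higher in heat whose libraries did not overlap; the oxidative population stood apart. None of the 12 named genes overlapped between the 6 heat and 6 oxidative libraries, since the rule that names them asks for that. Its lowest, median and highest levels were 52.2, 311 and 389 CPM in heat replicates 1 to 6 and 6.18, 8.89 and 14.9 CPM in the oxidative libraries (4.70 on the log2 scale, SE 0.44, adjusted p = 1.16e-05 by edgeR). All 22 libraries outside the oxidative population held more than any oxidative library, but the heat libraries were uneven. Replicates 1 and 2 held 52.2 and 94.4 CPM and replicates 3 to 6 between 283 and 389 CPM. Control replicates 1 to 6 lay between 96.9 and 194 CPM and the ancestor at 53.2 ± 12.8 CPM (SD, n = 4). Heat was above the ancestor (2.27, SE 0.40, edgeR adjusted p = 0.00173), whereas heat against control did not pass (0.93, SE 0.33, edgeR adjusted p = 0.195).

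FL81_15447 was close to absent from oxidative larvae, with 0 to 2 counts per oxidative library and 5 to 15 per heat library. Its lowest, median and highest levels were 2.21, 3.67 and 4.81 CPM in heat and 0, 0.279 and 0.451 CPM in oxidative libraries (3.59 on the log2 scale, SE 0.39, adjusted p = 2.84e-05 by edgeR). It was the only called gene with 3 counts or fewer in every library of one population and more in every library of the other. Heat replicates 7 and 8 held 7.83 and 16.42 CPM, and control replicates 7 and 8 held 12.7 and 22.8 CPM, above the 3.01 ± 1.96 CPM of control replicates 1 to 6.

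FL81_21398 and FL81_05979 showed the opposite arrangement, high in oxidative larvae and low in the rest. FL81_21398 had 0, 0.421 and 1.13 CPM as its lowest, median and highest heat levels and 11.0, 13.7 and 15.6 CPM in oxidative libraries (-4.41 on the log2 scale, SE 0.38, adjusted p = 4.10e-06 by edgeR). The heat libraries held 0 to 4 counts of it. FL81_05979 had 0.463, 2.42 and 4.49 CPM in heat and 20.5, 29.5 and 34.4 CPM in oxidative libraries (-3.38, SE 0.27, edgeR adjusted p = 1.93e-06). Control and ancestor levels of both lay at the heat level (0.921 ± 0.430 and 0.931 ± 0.646 CPM for FL81_21398, 3.43 ± 1.52 and 3.11 ± 1.22 CPM for FL81_05979), and no library outside the oxidative population reached an oxidative level.

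**Figure D4:**
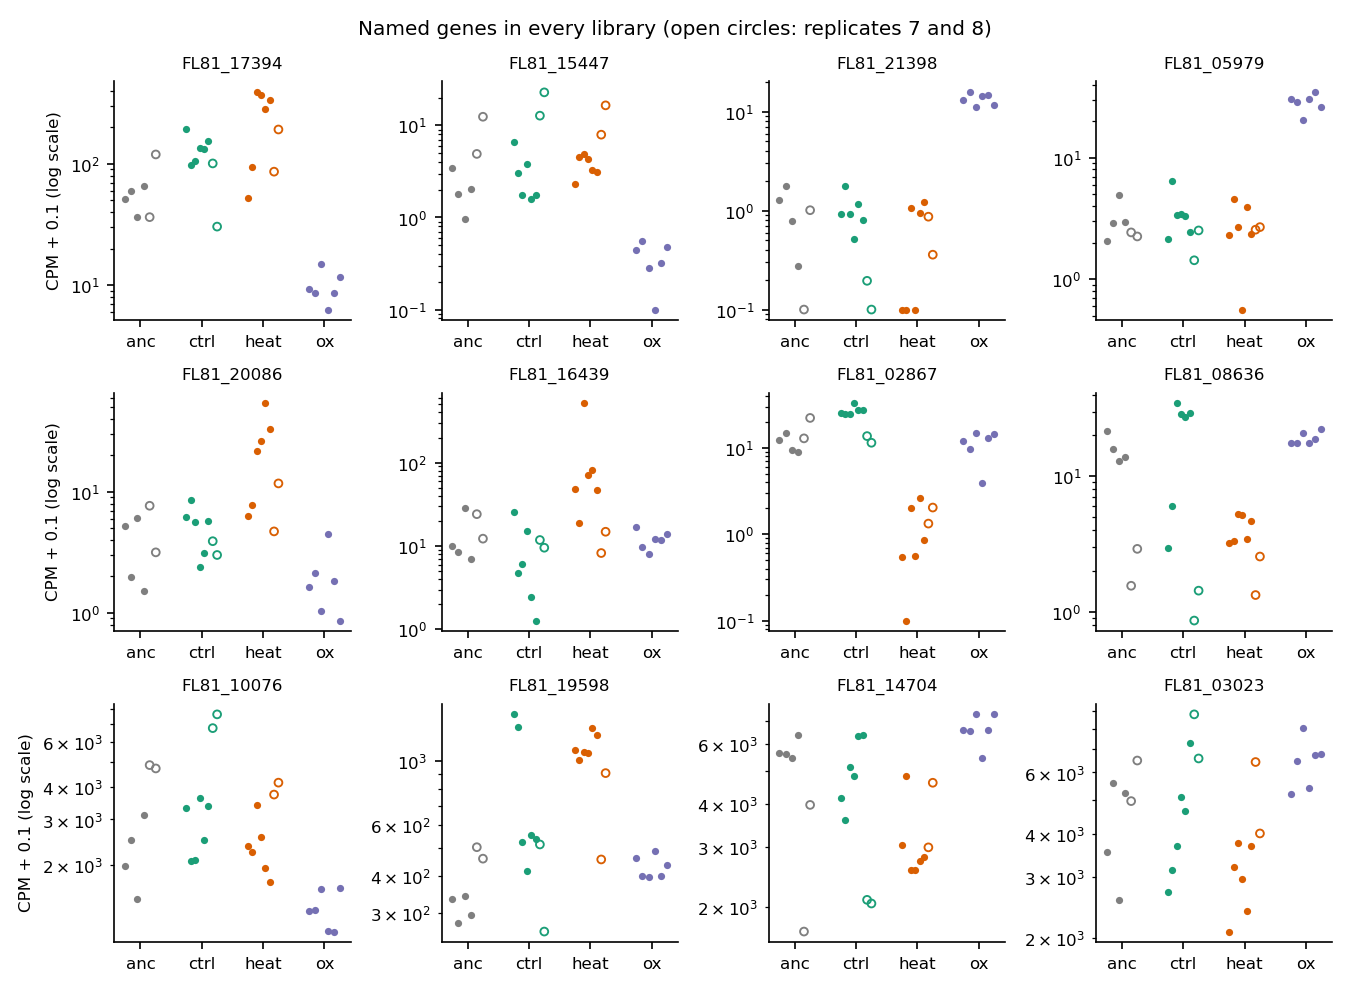
CPM plus 0.1 on a log axis for the 12 named genes, 1 point per library, in ancestor (anc), control (ctrl), heat and oxidative (ox) larvae; open circles are replicates 7 and 8. In the 4 genes of the top row the oxidative libraries stand clear of all others, and in FL81_02867 the 8 heat libraries do.

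The genes in which heat stood apart and was higher rested largely on heat replicates 3 to 6. Over the 99 such genes the median level in log2 CPM, relative to the oxidative mean, was between 1.16 and 1.25 in heat replicates 3 to 6, at 0.37 and 0.53 in heat replicates 1 and 2, and at 0.10 and 0.26 in replicates 7 and 8. In 56 of the 99 genes (56.6%) all of replicates 3 to 6 lay above both of replicates 1 and 2, against 17.6% of all genes tested. The same held for 30.7% of all 501 genes higher in heat, which were also selected on these libraries. Among those 501 it held for 22.8% of the 272 oxidative-apart genes and 27.7% of the 130 split genes. FL81_20086 had 6.20, 24.1 and 53.7 CPM as its lowest, median and highest heat levels and 0.763, 1.64 and 4.37 CPM in oxidative libraries (3.81 on the log2 scale, SE 0.51, adjusted p = 0.000185 by edgeR). Its heat replicates 1 and 2 (6.20 and 7.70 CPM) lay within the range of the control libraries 1 to 6 (2.29 to 8.43 CPM), and replicates 3 to 6 lay above it, at 21.8 CPM or more. FL81_16439 reached 514 CPM in heat replicate 3 and between 18.6 and 81.3 CPM in the remaining 5 heat libraries, against 8.00 to 16.7 CPM in oxidative libraries (3.45, SE 0.64, edgeR adjusted p = 0.00294). Without heat replicate 3 its log2 fold change was 2.18 (edgeR adjusted p = 0.000218), and with the share outside genes as a covariate it did not pass (2.70, edgeR adjusted p = 0.183). Heat replicates 7 and 8 held 8.14 and 14.7 CPM of it, which is the oxidative level, and in those libraries alone the fold change was -0.074 (edgeR adjusted p = 0.863). With heat replicates 1, 2, 7 and 8 it was 0.83 (edgeR adjusted p = 0.237).

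The 34 genes in which heat stood apart and was lower had similar medians in all heat libraries but not in all reference libraries. Their median level relative to the oxidative mean was between -1.04 and -0.78 in heat replicates 1 to 6 and at -0.77 and -0.85 in replicates 7 and 8. As a share of gene counts they were less even, at 0.577% and 0.659% in heat replicates 1 and 2 and 0.325% to 0.418% in replicates 3 to 6. In the median, control replicates 3 to 6 lay between -0.10 and -0.0066 and replicates 1 and 2 at -0.41 and -0.32, but control replicates 7 and 8 lay at -0.81 and -1.11 and ancestor replicates 7 and 8 at -0.91 and -0.52, so that of these 4 libraries ancestor replicate 8 was the one above the range of the heat libraries. FL81_08636 was such a gene, with 3.10, 3.95 and 5.13 CPM as its lowest, median and highest heat levels and 17.5, 18.2 and 22.3 CPM in oxidative libraries (-2.21 on the log2 scale, SE 0.18, adjusted p = 2.67e-06 by edgeR). It was high in control replicates 3 to 6 (27.4 to 34.4 CPM) and ancestor replicates 3 to 6 (12.7 to 21.5 CPM). In control replicates 1 and 2 it stood at 2.87 and 5.90 CPM, in control replicates 7 and 8 at 0.761 and 1.33 CPM, and in ancestor replicates 7 and 8 at 1.46 and 2.81 CPM, so that its low level was not limited to the heat population.

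FL81_02867 was lower in all 8 heat libraries than in any of the other 20. Its lowest, median and highest levels were 0, 0.610 and 2.53 CPM in heat replicates 1 to 6 and 3.86, 12.5 and 14.9 CPM in oxidative libraries (-3.13 on the log2 scale, SE 0.44, adjusted p = 0.000299 by edgeR). Heat replicates 7 and 8 held 1.23 and 1.94 CPM, while control replicates 7 and 8 held 13.6 and 11.4 CPM and ancestor replicates 7 and 8 held 12.8 and 22.2 CPM. Oxidative larvae lay at the ancestor level (0.01, SE 0.28, edgeR adjusted p = 0.994) and below the control (-1.23, SE 0.25, edgeR adjusted p = 0.00194). Heat replicates 1 to 6 held 0 to 12 counts of it. The difference from oxidative did not pass with the unaligned share as a covariate (-0.90, edgeR adjusted p = 0.506) or with the share outside genes (-2.65, edgeR adjusted p = 0.0723).

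The called genes that took the most counts differed by smaller factors. FL81_10076 had 1717, 2313 and 3420 CPM as its lowest, median and highest heat levels and 1106, 1334 and 1625 CPM in oxidative libraries (0.83 on the log2 scale, SE 0.18, adjusted p = 0.01002 by edgeR), with 2831 ± 699 CPM in control replicates 1 to 6. Control replicates 7 and 8 held 6763 and 7644 CPM of it, and heat replicates 7 and 8 held 3744 and 4163 CPM. FL81_19598 had 1010, 1082 and 1295 CPM in heat and 396, 419 and 487 CPM in oxidative libraries (1.40, SE 0.13, edgeR adjusted p = 7.64e-06). Its references were split: the ancestor held 312 ± 31.6 CPM, control replicates 1 and 2 held 1445 and 1310 CPM, and control replicates 3 to 6 held 416 to 553 CPM. Heat replicate 7 held 457 CPM of it, within the oxidative range, and heat replicate 8 held 907 CPM. In those 2 heat libraries alone the fold change was 0.65 (edgeR adjusted p = 0.0143). FL81_14704 and FL81_03023 were lower in heat. FL81_14704 had 2567, 2767 and 4838 CPM in heat and 5458, 6583 and 7325 CPM in oxidative libraries (-1.09, SE 0.19, edgeR adjusted p = 0.00179). It did not pass with heat replicates 1 and 2 alone (-0.75, edgeR adjusted p = 0.0698), with heat replicates 1, 2, 7 and 8 (-0.78, edgeR adjusted p = 0.0705) or with the share outside genes as a covariate (-0.79, edgeR adjusted p = 0.135). Control replicates 1 to 6 held 5075 ± 1125 CPM of it and ancestor replicates 3 to 6 held 5774 ± 420 CPM. Control replicates 7 and 8 (2100 and 2049 CPM) and ancestor replicate 7 (1696 CPM) lay below every heat library, and ancestor replicate 8 held 3981 CPM. The low level of FL81_14704 was thus not limited to the heat population. FL81_03023 had 2087, 3083 and 3762 CPM in heat and 5196, 6602 and 8063 CPM in oxidative libraries (-1.08, SE 0.19, edgeR adjusted p = 0.00201). Control replicates 1 to 6 held 4426 ± 1662 CPM of it and ancestor replicates 3 to 6 held 4232 ± 1423 CPM. For FL81_03023 heat replicate 7 held 6430 CPM, within the oxidative range, and in heat replicates 7 and 8 alone the difference did not pass (-0.31, edgeR adjusted p = 0.340). Nor did it pass with heat replicates 1, 2, 7 and 8 (-0.71, edgeR adjusted p = 0.186) or with the unaligned share as a covariate (-0.54, edgeR adjusted p = 0.285). FL81_10076 did not pass with the share outside genes as a covariate (0.78, edgeR adjusted p = 0.133).

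Heat replicates 7 and 8, which had no part in the calls, lay mostly on the heat side. The oxidative libraries they are set against did have a part, so libraries of any other population also tend to that side. Both heat replicates lay above the oxidative mean in 390 of the 501 genes higher in heat (77.8%) and above every oxidative library in 317 (63.3%). Of the genes tested whose heat mean was higher, called or not, 57.1% and 35.2% did so. Both lay below the oxidative mean in 296 of the 326 genes lower in heat (90.8%) and below every oxidative library in 243 (74.5%), against 57.3% and 29.7% of all genes with a lower heat mean. Control replicates 7 and 8 did nearly the same as the heat pair for genes lower in heat (235 below every oxidative library, 72.1%). For genes higher in heat they lay above every oxidative library less often (252, 50.3%). Ancestor replicates 7 and 8 lay below every oxidative library in 222 of the 326 genes (68.1%) and above every one in 226 of the 501 (45.1%). Over all genes with a lower or a higher heat mean, these shares were 29.5% and 33.7% for the control pair and 21.2% and 20.9% for the ancestor pair. The differences between the pairs were not tested. Replicates 7 and 8 also differed from the remaining libraries of their own population, in 1854 of 11959 genes in the control, 80 of 10862 in heat and 30 of 12236 in the ancestor (edgeR, adjusted p under 0.05, 2 libraries against 6, 6 and 4). The oxidative population has no libraries with these numbers, so a comparison within them could not be made.

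**Figure D5:**
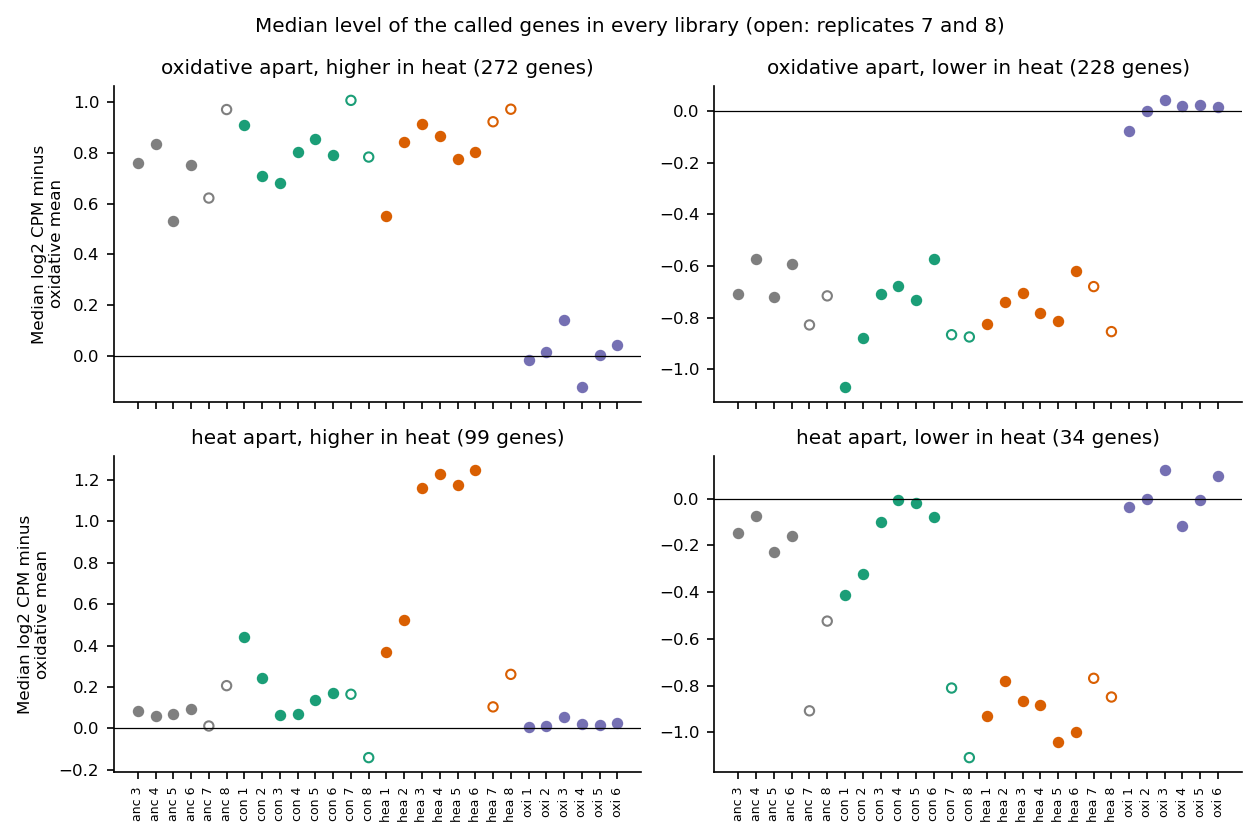
Median over genes of log2 CPM minus the oxidative mean, 1 point per library (anc, con, hea and oxi for the 4 populations, with the replicate number), for genes placed as oxidative apart (top) or heat apart (bottom) and higher (left) or lower (right) in heat; open circles are replicates 7 and 8. In the top panels all 22 libraries outside the oxidative population lie away from 0, which the placing fixes for replicates 1 to 6; at bottom left heat replicates 3 to 6 lie above 1.1 and the remaining heat libraries lower, and at bottom right control replicates 7 and 8 and ancestor replicate 7 lie as low as the heat libraries, with ancestor replicate 8 at -0.52.

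Placed again with control and ancestor replicates 7 and 8 as the references, a choice made after seeing the data, 342 of the 500 genes remained oxidative apart (68.4%, against 63.7% of all genes tested) and 75 of the 133 remained heat apart (56.4%, against 56.9%). Of the 34 genes lower in heat and placed as heat apart, 7 remained so and 22 became oxidative apart. In replicates 7 and 8 of heat, control and ancestor, which had no part in the placing, the median over the 272 oxidative-apart genes higher in heat lay 0.62 to 1.01 log2 units above the oxidative mean. Over the 228 lower in heat it lay between -0.88 and -0.68 relative to that mean, which the placing did use.

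The identifiers are numbered, but the sources used here do not state how the numbers relate to the genome. The next tested number was called in the same direction for 36 of the 501 genes higher in heat (7.19%, where 4.77% of genes tested were called in that direction) and for 21 of the 326 lower (6.44%, against 3.11%). No run of called genes in 1 direction was longer than 3, and there were 4 of that length.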

How the data were processed

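The submitters' processing notes name GSNAP and HTSeq. Which build, annotation and strandedness they used was not given in the sources used here, so overlapping genes and near-identical copies cannot be resolved. The authors deposited raw counts per gene for each library. The 5 summary lines gave the shares of reads and entered neither library sizes nor tests. Before TMM scaling, 3 counts correspond to 0.190 to 2.13 CPM, so this range does not apply exactly to the scaled levels given here.

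In R 4.3.3, edgeR 4.0.16 (filterByExpr with a minimum count of 10, TMM, quasi-likelihood test, Benjamini-Hochberg adjustment over all genes tested) was fitted to the 12 libraries, and to the 22 numbered 1 to 6 for the reference comparisons; the first was tested on simulated data. Standard errors come from the fold change and F statistic. Levels are CPM with TMM over 28 libraries as mean ± SD; positions use log2 CPM with a prior count of 2. Named genes have adjusted p under 0.05, a mean log2 CPM of 1 or more and populations that do not overlap: per direction, the 2 largest folds among oxidative-apart and among heat-apart genes, and the 2 with the highest mean CPM. Members, lists and rules were chosen with earlier results of these data known. Alternatives included DESeq2 1.42.0 and limma 3.58.1.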

Additional observations from a re-analysis of the deposited data

Results flagged for a closer look

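Among 72 groups of 4 or 6 libraries examined for a sample far from the others, 7 had one, where chance gives about 1 in 20. FL81_16439 was at 514 CPM in heat replicate 3, with the next heat library at 81.3 CPM, and at 28.4 CPM in ancestor replicate 5, with the next at 9.96 CPM. FL81_14704 was at 4838 CPM in heat replicate 2, with the next heat library at 3047 CPM. FL81_05979 was at 6.32 CPM in control replicate 2, FL81_02867 at 32.7 CPM in control replicate 4, and FL81_20086 at 4.37 CPM in oxidative replicate 4. The median level of the 501 genes higher in heat was 0.39 log2 units above the oxidative mean in ancestor replicate 5, below the 0.55 to 0.56 of the remaining ancestor libraries 3 to 6.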

How the results depend on the processing

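The alternative fits, 28 or 29 for each of the 12 named genes, gave 346 results by gene and fit. Of these, 334 kept the call, 11 lost it in the same direction and 1 reversed. The reversed one was FL81_16439, at -0.074 with heat replicates 7 and 8 alone. The 12 genes were chosen for calls without overlap in libraries that the alternatives largely reuse. A kept call was therefore likely in advance, and these counts describe the named genes only. The counts (total, higher and lower in heat) were 3464, 1918 and 1546 with heat replicates 7 and 8 alone, 2233, 1306 and 927 without heat replicates 1 and 2, 2134, 1215 and 919 with limma-voom and sample weights, and 2810, 1558 and 1252 with the unaligned share as a covariate. The genes lower in heat numbered 554 with heat replicates 1 and 2 alone and 532 with DESeq2. Leaving out 1 replicate gave 546 to 1947 in total, 306 to 1137 higher and 222 to 810 lower; the cause was not tested. Genes placed as oxidative apart numbered 764 of the 1168 called with heat replicates 1 to 8, a larger called set than the 827. In the main comparison 46% of all genes tested were so placed. At 2-fold or more, a smaller set by construction (307 genes), 153 were placed as oxidative apart (49.8%, against 46% of all genes tested). In that set 73 were heat apart (23.8%, against 24.1%) and 81 were split (26.4%, against 29.9%). With references 7 and 8, added after seeing the data, the 827 genes were placed as 460 oxidative apart, 250 heat apart and 117 split. With the main references these were 500, 133 and 194. Over all genes tested, the 4826 first placed as oxidative apart became 3074, 979 and 773 in the same order. The 2526 first placed as heat apart became 641, 1438 and 447, and the 3143 split genes became 1283, 1154 and 706. Other scalings (RLE, upper quartile), the robust fit, no filter, a minimum count of 30 and fits of 22 or 28 libraries gave totals of 746 to 1074, and heat replicates 1, 2, 7 and 8 gave 718. With the replicate number as a block 849 genes were called; same-numbered deviations correlated between -0.35 and 0.61, with 2 of 6 pairs over 0.1, so the numbers were not taken as pairs. The shallow heat replicates 1 and 2 (1555582 and 1406684 counts) limit what low genes can show.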
